A study of Homo sapiens with 6 samples.

Results

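Collagens, laminins and the glycoproteins that assemble with them form the extracellular matrix to which cells attach. Here 86 such genes were followed after depletion of the ubiquitin ligase UBE3D in breast cancer cells. They are the 44 collagen chains, the 12 laminin chains and 30 named matrix glycoproteins, proteoglycans and cross-linking enzymes, picked by gene symbol from the 20115 genes of the expression table. Of the 2014 readthrough regions in the second table, 3 carry the name of a member.

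RNA was sequenced from MDA-MB-231, an established line from a triple-negative breast cancer with a mesenchymal shape, in 2 groups of 3 libraries. In the UBE3D KD group doxycycline induced short hairpin RNAs against UBE3D that a lentivirus had placed in the genome. The second group is labelled control, and the labels do not say which hairpin it carried or whether it received doxycycline. All samples are marked as pooled, and separate cultures are not mentioned. The p-values therefore reflect only the spread among libraries, and that spread may be technical. The design text poses 2 questions, one on gene expression and one on readthrough transcription after UBE3D loss.

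The data are the authors' deposited tables of 1 comparison, UBE3D KD over control. For each gene they give a mean normalized count over all 6 libraries, a log2 fold change, its standard error (SE) and an adjusted p-value. Values of single libraries or of each group were not analysed here, so every level below is a mean over both groups, and the depth of the libraries is unknown. The log2 fold changes are shrunken toward 0, so the folds given are those after shrinkage. A gene is called raised or lowered at an adjusted p under 0.05. UBE3D itself was lowered (log2 fold change -0.80, SE 0.37, adjusted p = 0.00632), at a mean of 36.7 normalized counts, per the authors' deposited table. This call was lost when the deposited change was divided by its SE in a Wald test (adjusted p = 0.295). As the deposited changes are shrunken, that test can only weaken calls, so the loss does not show that UBE3D was unchanged. The line's markers VIM, CD44, AXL, MSN and CAV1 had means from 5079 to 11376 normalized counts, and 4 of the 5 were lowered, CAV1 most (log2 fold change -1.68), per the authors' deposited table. ESR1 and PGR, the hormone receptors that define luminal breast cancers, had means of 22.2 and 50.2 in the authors' deposited table. ERBB2, the third receptor looked up, had a higher mean of 758 there.

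Collagens are built from 3 chains that wind into a triple helix, and laminins from 1 alpha, 1 beta and 1 gamma chain. Fibrillar collagens give tissues tensile strength, whereas type IV collagen and laminins form the sheets of the basement membrane on which epithelial cells rest. Matricellular proteins such as tenascin-C and thrombospondins add little structure and mainly modulate how cells adhere and migrate. Lysyl oxidases cross-link the fibres, and stiff, cross-linked matrix is a known feature of invasive breast tumours.

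More matrix genes were lowered than raised. Of the 86 members 18 fell and 4 rose, which is 25.6% called, whereas 12.5% of all genes were called (7.93% lowered and 4.62% raised). Abundant genes are called more often, so the members were also read by level. Among the 40 members whose mean was 100 normalized counts or more, 13 fell and 3 rose (40.0% called). Of the 9743 genes at that level 19.8% were called, 12.4% lowered and 7.45% raised. Among the 46 members below that mean, 5 fell and 1 rose (13.0% called). There 5.71% of genes were called, 3.75% lowered and 1.96% raised. The members' median log2 fold change was -0.09, against -0.03 over all genes in the authors' deposited table. At least 2-fold changes were seen in 9 lowered and 2 raised members, and the share of all genes at that fold is not given here. Under the Wald test on the deposited changes 14 of these 22 calls were kept, 3 raised and 11 lowered. That test can only weaken calls, and the share of all genes' calls that it kept is not given here. The calls lost were those of EFEMP1, COL7A1, COL15A1, COL18A1, LAMA1, LOXL2, FBLN1 and SPARC.

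**Figure D1:**
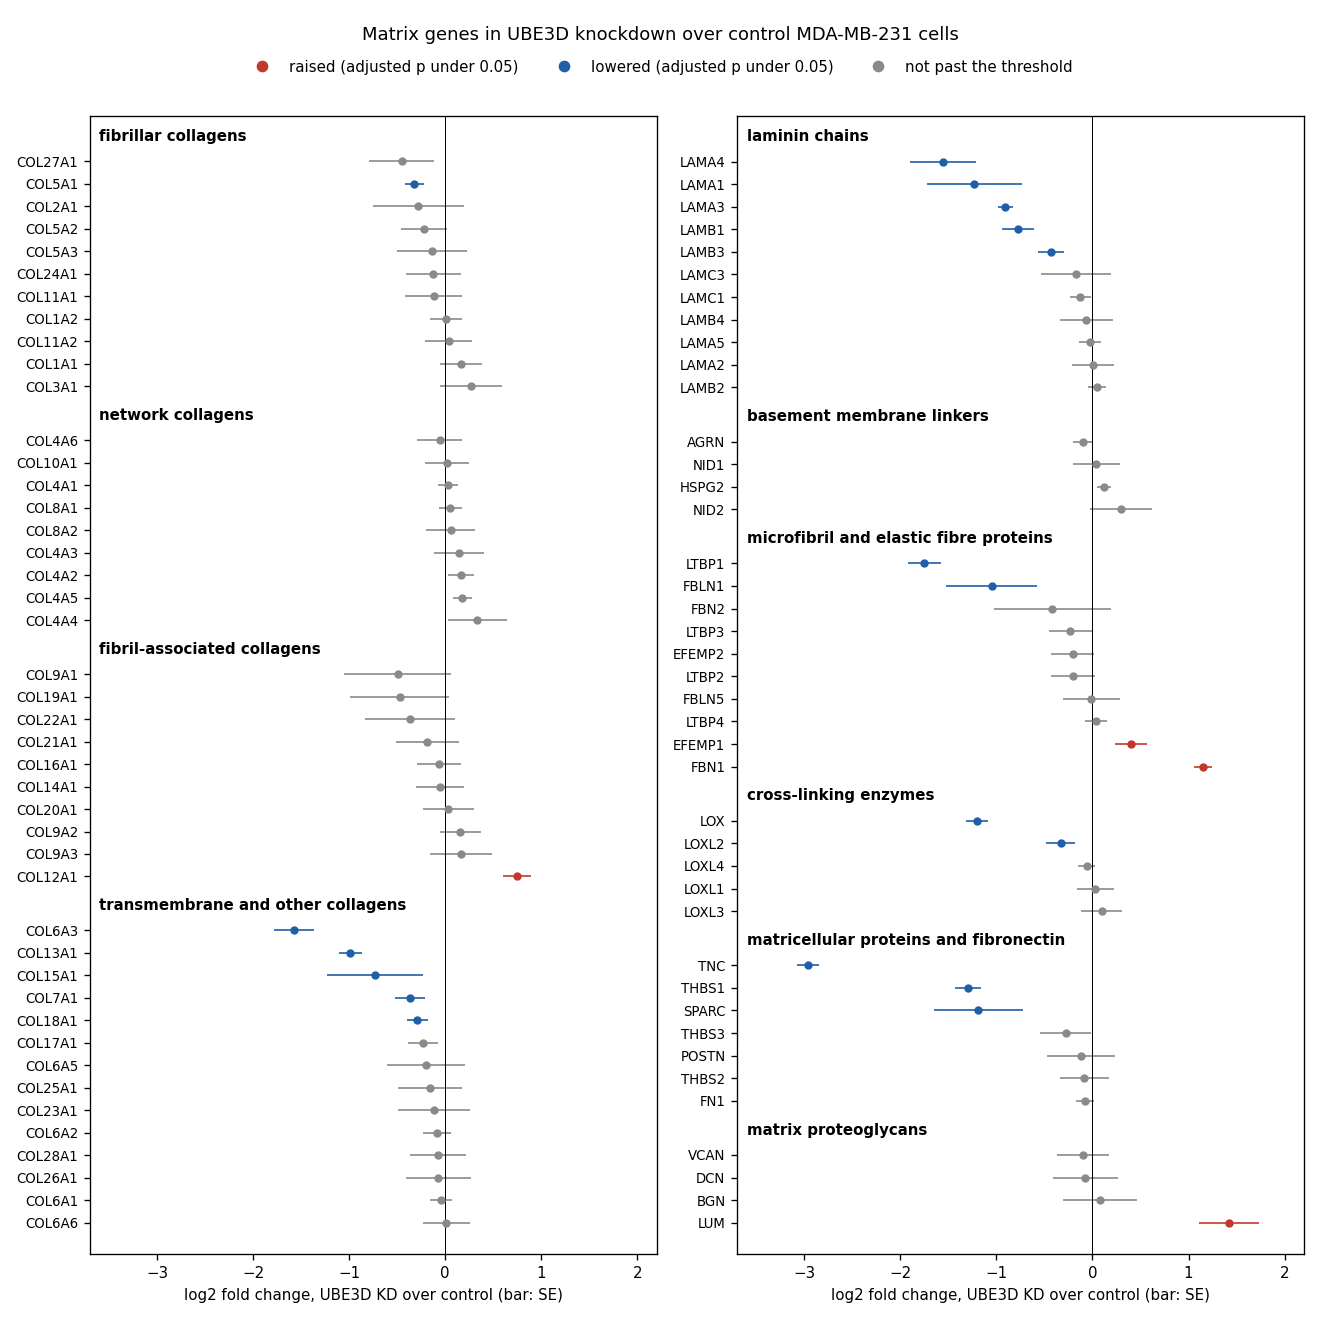
Log2 fold change of the matrix genes reported here, UBE3D KD over control (x axis), by role and ordered within each role, with bars of 1 SE. The plot shows 18 lowered and 4 raised genes. TNC stands farthest left at -2.96 and LUM farthest right at 1.42.

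**Figure D2:**
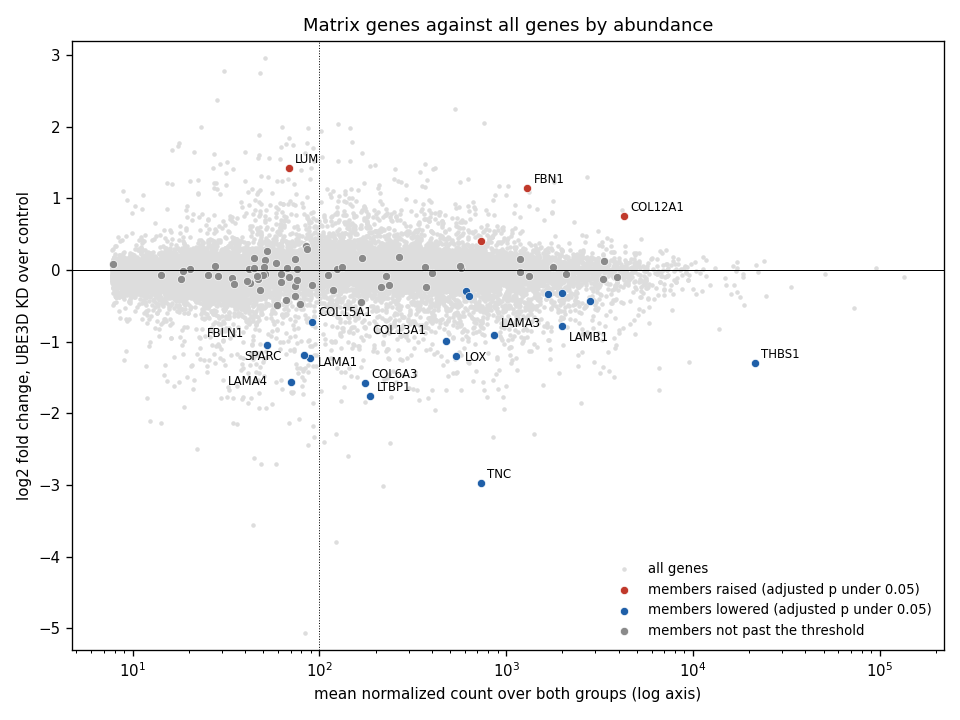
Log2 fold change (y axis) against the mean normalized count over both groups (x axis, log scale) for all genes in pale grey and the members reported here in red (raised), blue (lowered) or dark grey (not past the threshold). The dotted line marks a mean of 100. THBS1, the most abundant member at 21397, lies at -1.29.

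The matricellular genes held the strongest change. TNC encodes tenascin-C, a glycoprotein deposited at the invasive edge of tumours, and lies on the minus strand of chromosome 9 (chr9:115019578-115118257, GRCh38). It fell by 2.96 log2 units (SE 0.12), 7.81-fold lower in UBE3D KD cells than in control cells, in the authors' deposited table. Its adjusted p of 1.16e-143 was the lowest of all 20115 genes, and its fall ranked 5 among them, in the authors' deposited table. The interval of 95% from the SE ran from -3.19 to -2.74. The stretch of 250 bases before the start of TNC is shown because no other member changed as much. It holds 1 GC box (GGGCGG, in capitals, searched on both strands) and has no match in these letters to AP-1 (TGANTCA), TEAD (GGAATG) or TATAAA. Only these exact letters were searched, and the similar letters TATATAAG lie near the end of the stretch, close to the start of TNC. A GC box occurs in 45.0% of the 35116 windows of 300 bases around all gene starts in RefSeq.
TNC, chr9:115118158-115118407, minus strand, GRCh38.p14: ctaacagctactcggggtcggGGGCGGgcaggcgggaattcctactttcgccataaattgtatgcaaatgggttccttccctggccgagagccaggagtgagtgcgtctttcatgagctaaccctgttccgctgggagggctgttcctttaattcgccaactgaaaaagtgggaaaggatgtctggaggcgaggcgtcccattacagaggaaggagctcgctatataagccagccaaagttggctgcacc

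THBS1 encodes thrombospondin-1, an inhibitor of blood vessel growth that also activates latent TGF-beta. It was the most abundant member, with 21397 normalized counts or 2336 per kb of exon, and ranked first of the 86 on either scale in the authors' deposited table. THBS1 fell by 1.29 log2 units (SE 0.13, adjusted p = 7.04e-22), 2.45-fold lower in UBE3D KD cells, in the authors' deposited table. SPARC, a collagen-binding protein, was lowered as well (log2 fold change -1.19, SE 0.47, adjusted p = 0.00147) but at a mean of only 82.6 normalized counts, per the authors' deposited table. Fibronectin (FN1), the main ligand of the integrin alpha 5 beta 1, gave -0.08 (95% interval -0.26 to 0.10, adjusted p = 0.571) at a mean of 1321, per the authors' deposited table. THBS2, THBS3 and POSTN, which encodes periostin, had log2 fold changes from -0.28 to -0.08 and did not pass the threshold in the authors' deposited table.

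The transcript of THBS1 also carries a short word that recurs in genes lowered here. Of the lowered genes with a mean of 100 or more, 27.6% hold the 7-base word GATTGAA in the 3' untranslated region, against 11.3% of all 9126 such genes. The word was picked on these same values, so it is no independent evidence. It is present in 4.65% of all 86 members, whatever their mean, namely THBS1, COL5A2, COL25A1 and NID1. Only THBS1 among them has a mean of 100 or more. Of these 4, THBS1 fell and the other 3 did not pass the threshold, so 17 of the 18 lowered members, TNC among them, lack it. THBS1 holds 3 copies in its 4097 bases of 3' untranslated region, printed here with 10 bases on either side and the word in capitals (GENCODE 29, GRCh38, plus strand).
THBS1, chr15:39595373-39595399: tcaaattgttGATTGAAagactgatca
THBS1, chr15:39595904-39595930: attttcagggGATTGAAagactattgc
THBS1, chr15:39598543-39598569: aagcaaaactGATTGAAaataccaaga
A different word, CTTATCT, was picked in the same way on raised genes, of which 25.0% hold it, against 12.5% of those 9126 genes. It is present in 7 members, of which COL12A1 rose, LAMA4 fell and 5 did not pass. COL12A1 holds 2 copies, on the minus strand of chromosome 6.
COL12A1, chr6:75085476-75085502: gacattgtaaCTTATCTatttatagtt
COL12A1, chr6:75084713-75084739: attgcaattaCTTATCTtcctcttcta
The hairpins' sequences were not used here, and whether either word belongs to one was not tested.

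Of the 12 laminin chains 5 fell and 0 rose in the authors' DESeq2 fit, with the same counts at an unadjusted p under 0.05. That is 41.7% called, against 12.5% of all genes and 19.8% of genes with a mean of 100 or more, the chains' own median mean count being 698. The 3 deepest falls were those of alpha chains. LAMA3, whose chain belongs to laminin-332, the laminin that anchors epithelial cells through hemidesmosomes, fell by 0.91 log2 units (SE 0.08, adjusted p = 5.13e-32) in the authors' deposited table. LAMA4 (-1.56, SE 0.34, adjusted p = 2.74e-06) and LAMA1 (-1.23, SE 0.49, adjusted p = 0.00152) were lowered at means of 70.7 and 88.9 normalized counts, per the authors' deposited table. Per kb of exon these are 6.10 and 5.60 normalized counts. Among genes that mark blood and endothelial cells, PTPRC, CDH5, PECAM1 and VWF had 4.77, 4.41, 6.59 and 6.63 per kb. CD68 was far higher, at 124 per kb, computed from the authors' deposited table. Of 5 such markers CD68, which also serves lysosomes, was lowered (-1.25, SE 0.15) and the other 4 did not pass, per the authors' deposited table, and their part in these falls was not tested. The beta chains LAMB1 (-0.78, SE 0.17, adjusted p = 3.60e-06) and LAMB3 (-0.43, SE 0.13, adjusted p = 0.000976) also fell in the authors' deposited table. LAMB2, the other abundant beta chain, gave 0.05 (95% interval -0.14 to 0.24) in the authors' deposited table.

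Chains of the same laminin were set side by side. LAMC1, the gamma chain of most laminins and the most abundant laminin chain by mean count (3304), had -0.13 (SE 0.11, adjusted p = 0.398) in the authors' deposited table. LAMA3 and LAMB3 share laminin-332, and the interval of LAMA3 (-1.06 to -0.76) did not overlap that of LAMB3 (-0.69 to -0.17), per the authors' deposited table. In laminin-511, the widespread laminin of adult basement membranes, LAMA5 (-0.03, interval -0.25 to 0.19) and LAMC1 (-0.34 to 0.09) lay apart from LAMB1 (-1.10 to -0.45), per the authors' deposited table. In laminin-511 the lowered chain thus had an interval apart from those of both partners, which did not pass. In laminin-411, by contrast, LAMA4 (-2.22 to -0.89) and LAMB1 both fell with overlapping intervals, while LAMC1 did not pass, per the authors' deposited table.

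**Figure D3:**
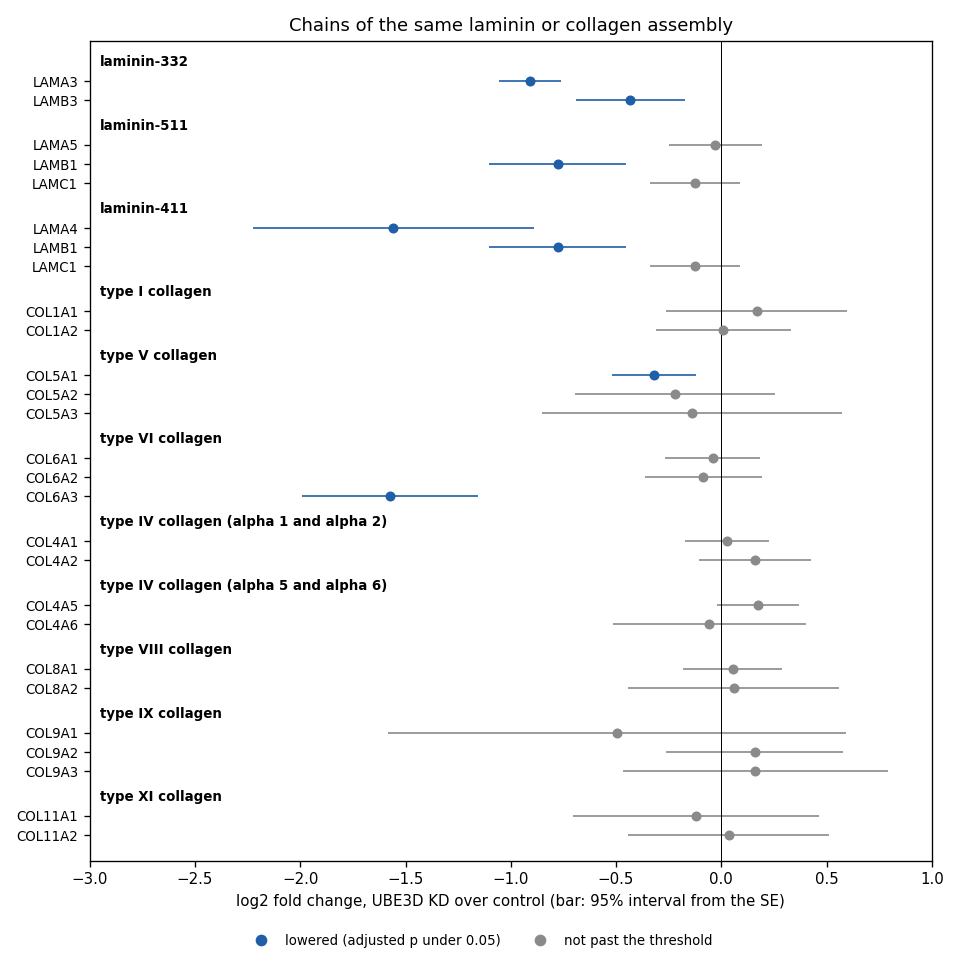
Log2 fold change, UBE3D KD over control (x axis), for the reported chains of 11 laminin and collagen assemblies, with bars of the 95% interval from the SE. In type VI collagen the chain COL6A3 lies at -1.57 while COL6A1 and COL6A2 lie at -0.04 and -0.08.

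The start of the shorter LAMA3 transcript is shown because LAMA3 was the laminin chain with the lowest p-value, and because it and LAMB3 each hold AP-1 letters near a start. The motif TGANTCA was found in the windows of 4 of the 66 members with an entry (LAMA3, LAMB3, COL10A1 and POSTN), 4 of their 89 windows or 4.49%, against 7.71% of all windows. COL10A1 and POSTN did not pass the threshold. LAMA3 has 2 matches, which begin 125 and 69 bases before the start, in capitals.
LAMA3, chr18:23872770-23873019, plus strand, GRCh38.p14: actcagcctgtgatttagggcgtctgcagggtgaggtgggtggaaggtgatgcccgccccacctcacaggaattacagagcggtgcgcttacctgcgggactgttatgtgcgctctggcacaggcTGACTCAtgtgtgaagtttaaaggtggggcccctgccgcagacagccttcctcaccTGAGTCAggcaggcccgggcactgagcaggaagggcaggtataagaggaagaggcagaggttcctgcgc
LAMB3 has 1 match, 67 bases before one of its starts.
LAMB3, chr1:209651425-209651451, minus strand: tcagccactcTGACTCAttcactttgg
These matches are letters in a window and were not tested as binding sites.

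The 4 genes of proteins that link the laminin and collagen IV sheets did not pass the threshold. With 12.5% of all genes called, 0 of 4 does not set them apart. Perlecan (HSPG2), a large heparan sulfate proteoglycan, gave 0.12 (95% interval -0.02 to 0.26) at a mean of 3336 normalized counts, per the authors' deposited table. Agrin (AGRN) gave -0.10 (-0.30 to 0.10) at a mean of 3913 in the authors' deposited table. The nidogens NID1 and NID2, which bridge laminin to collagen IV, were at 50.5 and 85.5 normalized counts, with log2 fold changes of 0.04 and 0.30 and wide SE of 0.25 and 0.32 in the authors' deposited table. By unadjusted p under 0.05, 0 of these 4 genes were raised and 0 lowered in the authors' DESeq2 fit.

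Network collagens, which include the type IV chains of the basement membrane, also stayed short of the threshold (9 of 9, with 2 raised and 0 lowered at an unadjusted p under 0.05 in the authors' DESeq2 fit). With 12.5% of all genes called, 0 of 9 does not set these collagens apart. Their log2 fold changes ran from -0.06 to 0.33, 8 of the 9 above 0, with a median of 0.06 against -0.03 over all genes in the authors' deposited table. Above 0 were 8696 of all 20115 genes and 4893 of the 9743 genes with a mean of 100 or more. COL4A2, the most abundant of them, gave 0.16 (SE 0.13, adjusted p = 0.325) and its partner COL4A1 0.03 (SE 0.10, adjusted p = 0.882) in the authors' deposited table. These chains form 1 trimer in most basement membranes, and their genes lie head to head on chromosome 13. Their RefSeq starts are 127 bases apart, while their longest GENCODE 29 models overlap at the starts, and the stretch between them is shown because both genes begin on it, COL4A1 to the left on the minus strand and COL4A2 to the right on the plus strand, with a GC box in capitals.
COL4A1 and COL4A2, chr13:110307157-110307284, plus strand, GRCh38.p14: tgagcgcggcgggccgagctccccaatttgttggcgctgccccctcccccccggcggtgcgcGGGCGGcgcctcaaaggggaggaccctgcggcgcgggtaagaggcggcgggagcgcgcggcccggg
COL4A4 and COL4A3 (0.33 and 0.15) and the X-linked COL4A6 and COL4A5 (-0.06 and 0.17) are likewise placed head to head, 112 and 347 bases apart in GENCODE 29, and none of these 4 log2 fold changes passed the threshold in the authors' deposited table. COL8A1, whose chain forms hexagonal lattices, gave 0.05 (SE 0.12) at a mean of 564 normalized counts, per the authors' deposited table.

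Fibrillar collagens were mostly of low abundance, and 1 of 11 was called. This 9.09% is near the 12.5% of all genes and the 5.71% of genes below a mean of 100. COL5A1, a chain that regulates the diameter of collagen fibrils, fell by 0.32 log2 units (SE 0.10, adjusted p = 0.00273), 1.25-fold lower in UBE3D KD cells, at a mean of 1994 in the authors' deposited table. Its partners COL5A2 (-0.22, adjusted p = 0.301) and COL5A3 (-0.14, adjusted p = 0.475) had means of 73.7 and 76.2 normalized counts and wider intervals in the authors' deposited table. When all changes were shifted to a median of 0 before the Wald test, the call of COL5A1 was lost (adjusted p = 0.0601). COL1A1 and COL1A2, the chains of type I collagen and the main collagen of fibroblasts, had means of 168 and 125, with log2 fold changes of 0.17 (SE 0.22) and 0.01 (SE 0.16), in the authors' deposited table. Per kb of exon COL5A1 stood at 178 normalized counts, above COL1A1 at 17.1, COL1A2 at 11.2 and COL3A1 at 7.65, computed from the authors' deposited table.

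Of the 10 fibril-associated collagens COL12A1 rose (10.0% called, near the 12.5% of all genes). Its product binds the surface of collagen I fibrils and tunes how they respond to load. COL12A1 was the most abundant collagen chain, with a mean of 4274 normalized counts, and it rose by 0.75 log2 units (SE 0.14, adjusted p = 3.05e-07), 1.68-fold higher in UBE3D KD cells, in the authors' deposited table. The other 9 had means from 42.5 to 111 normalized counts and log2 fold changes from -0.50 to 0.16 in the authors' deposited table, and none passed.

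Of the 14 remaining collagens 5 fell (35.7% called, at a median mean count of 133). Among all genes 7.93% were lowered, and 12.4% of those with a mean of 100 or more. COL6A3, one of the chains of the beaded filaments of type VI collagen, fell by 1.57 log2 units (SE 0.21, adjusted p = 4.94e-13), 2.98-fold lower in UBE3D KD cells, in the authors' deposited table. Its partners COL6A1 (-0.04, 95% interval -0.27 to 0.18) and COL6A2 (-0.08, -0.36 to 0.19) did not pass, and their intervals did not overlap that of COL6A3 (-1.99 to -1.16), in the authors' deposited table. COL6A3 was the least abundant per length of the 3 chains, with 8.92 normalized counts per kb against 74.6 for COL6A1 and 42.1 for COL6A2, computed from the authors' deposited table. COL13A1, a transmembrane collagen of cell adhesion sites, fell by 0.99 (SE 0.12, adjusted p = 1.15e-15), 1.98-fold lower in UBE3D KD cells, in the authors' deposited table. Its relative COL17A1, the transmembrane collagen of hemidesmosomes, gave -0.23 (SE 0.15, adjusted p = 0.169) in the authors' deposited table. COL7A1, which forms the anchoring fibrils below the basement membrane, was lowered by less (-0.37, SE 0.15, adjusted p = 0.0143), as was COL18A1, the source of the angiogenesis inhibitor endostatin (-0.29, SE 0.11, adjusted p = 0.0189), in the authors' deposited table. COL15A1, related to COL18A1, was called lowered at -0.73 (SE 0.50, adjusted p = 0.0259) in the authors' deposited table, although its 95% interval from that SE, -1.71 to 0.25, includes 0.

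Genes of microfibrils and elastic fibres went both ways. FBN1, which encodes fibrillin-1, the backbone of microfibrils, rose by 1.15 log2 units (SE 0.09, adjusted p = 2.10e-33), 2.22-fold higher in UBE3D KD cells, at a mean of 1294 in the authors' deposited table. LTBP1, which binds latent TGF-beta and tethers it to fibrillin microfibrils, fell by 1.75 (SE 0.17, adjusted p = 6.15e-23), 3.37-fold lower in UBE3D KD cells, at a mean of 187 in the authors' deposited table. FBN1 and LTBP1 thus changed in opposite directions, with intervals of 0.97 to 1.33 and -2.09 to -1.41 in the authors' deposited table. The related genes LTBP2 (-0.20), LTBP3 (-0.23) and LTBP4 (0.04) did not pass the threshold, and LTBP4 was the most abundant LTBP gene, with 368 normalized counts or 45.3 per kb, in the authors' deposited table. EFEMP1, which encodes fibulin-3, was raised (0.40, SE 0.17, adjusted p = 0.0142) in the authors' deposited table. FBLN1, another fibulin gene, was lowered (-1.05, SE 0.48, adjusted p = 0.00362) at a mean of 52.5 normalized counts, per the authors' deposited table. FBN2, a fibrillin mainly of developing tissue, had -0.42 with an SE of 0.61 at a mean of 66.6 in the authors' deposited table.

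Of the 5 lysyl oxidase genes LOX and LOXL2 fell. That is 40.0% called, against 12.5% of all genes and 19.8% of genes with a mean of 100 or more. LOX, on chromosome 5 (chr5:122063195-122078360, GRCh38), fell by 1.20 log2 units (SE 0.12, adjusted p = 5.53e-24), 2.30-fold lower in UBE3D KD cells, at a mean of 539 in the authors' deposited table. LOXL2, which acts on collagen IV as well as on fibrils, had -0.33 (SE 0.15, adjusted p = 0.0305) at a mean of 1682 in the authors' deposited table. It overlaps ENTPD4 on the same strand in GENCODE 29, so reads in the shared part could be split. LOXL4 was the most abundant of the 5 per length, with 570 normalized counts per kb, and its log2 fold change was -0.06 (95% interval -0.23 to 0.11, adjusted p = 0.669) in the authors' deposited table. LOXL1 and LOXL3 were at means of 44.5 and 58.4 normalized counts, with log2 fold changes of 0.03 and 0.09 in the authors' deposited table.

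Of the 4 small and large matrix proteoglycans only LUM was called (25.0%, against 12.5% of all genes and 5.71% of genes below a mean of 100). LUM encodes lumican, a leucine-rich proteoglycan that spaces collagen fibrils, and it was raised by 1.42 log2 units (SE 0.31, adjusted p = 2.74e-06), 2.68-fold higher in UBE3D KD cells, at a mean of 68.3 normalized counts, per the authors' deposited table. DCN, the decorin gene next to it on chromosome 12, had -0.07 (SE 0.34) at a mean of 14.2, BGN 0.08 (SE 0.39) at 7.84 and VCAN -0.10 (SE 0.27) at 68.3 in the authors' deposited table. LUM is also a fibroblast marker. Among 8 other fibroblast markers PDGFRB was raised (0.96, SE 0.34, adjusted p = 0.00110) and S100A4, which this line expresses at a mean of 1587, was lowered (-0.52, SE 0.14, adjusted p = 0.000240) in the authors' deposited table. The other 6, PDGFRA, FAP, THY1, ACTA2, PDPN and TCF21, had means from 10.7 to 49.2 normalized counts and did not pass in the authors' deposited table. No gene listed there has a mean under 7.74, so a mean above 0 does not set these markers apart. Their part in the value of LUM was not tested. In bulk RNA a change in the share of cells of a type and a change in RNA per cell cannot be told apart.

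Some matrix genes were abundant and measured tightly without passing. Of the 64 members not called, 20 had a 95% interval within 0.5 of 0 on the log2 scale, among them LAMC1, AGRN, HSPG2, LAMB2, LOXL4, FN1, LAMA5, COL4A1 and COL6A1, per the authors' deposited table. These intervals rest on shrunken values. For many of the rest the level was low: the median mean count of members not called was 73.8, against 574 for lowered members, in the authors' deposited table.

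Several lowered genes overlap another gene of the table on the opposite strand in GENCODE 29. These are TNC (DEC1), THBS1 (FSIP1), LAMB1 (DLD), LOX (SRFBP1) and COL18A1 (2 antisense RNAs and SLC19A1). The opposite-strand genes had log2 fold changes from -0.60 to 0.20, and none passed the threshold in the authors' deposited table. Libraries were stranded per the labels, but no source used here gives the strand setting of the counting.

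Genes that modify, process and export collagen were mostly lowered among those called. Of 31 measured, 10 fell and 2 rose, with a median log2 fold change of -0.14, in the authors' deposited table. Their 38.7% called stands against 12.5% of all genes and 19.8% of genes with a mean of 100 or more, at a median mean count of 440. PLOD2, the lysyl hydroxylase that makes the stable cross-link precursors in collagen ends, fell by 1.62 (SE 0.15, adjusted p = 9.98e-25) at a mean of 1001 in the authors' deposited table. P4HA1, a catalytic subunit of the prolyl hydroxylase that stabilises the triple helix, fell by 0.55 (SE 0.13, adjusted p = 1.55e-05) in the authors' deposited table. ADAMTS14, a procollagen protease (-1.73, SE 0.43), and COLGALT2, a collagen galactosyltransferase (-1.04, SE 0.30), fell at means of 81.3 and 95.1 normalized counts, per the authors' deposited table.

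Receptors and other core matrix genes were counted in the same way. Of 16 matrix receptors other than integrins, 8 fell and 2 rose, with a median log2 fold change of -0.28 in the authors' deposited table. Their 62.5% called stands against 12.5% of all genes and 19.8% of genes with a mean of 100 or more, at a median mean count of 420. The syndecans, heparan sulfate proteoglycans of the cell surface, were all called: SDC3 (-0.79, SE 0.12), SDC1 (-0.58, SE 0.14) and SDC4 (-0.38, SE 0.13) fell and SDC2 rose (0.69, SE 0.14), with adjusted p-values of 0.00255 or lower in the authors' deposited table. SDC4 was the most abundant of the 4, with a mean of 5246 normalized counts, per the authors' deposited table. CD47, a receptor of thrombospondin-1, fell by 0.55 (SE 0.14, adjusted p = 8.27e-05) in the authors' deposited table. Of 55 other core matrix genes 6 fell and 3 rose (16.4% called at a median mean count of 40.3, against 12.5% of all genes and 5.71% of genes below a mean of 100). TGFBI (-0.88, SE 0.13), CTGF (-0.65, SE 0.13) and ECM1 (-0.55, SE 0.15) were the clearest falls, and SPP1, which encodes osteopontin, was called at -2.13 with an SE of 1.40 and a mean of 14.2 in the authors' deposited table.

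A readthrough region is a stretch downstream of a gene (DoG) that is transcribed past the gene's end. LAMB1, LOXL3 and COL8A1 have a region of their own name, and 2 of these 3 regions were lowered. Of all DoG regions 28.8% were called, 16.1% lowered and 12.7% raised. The DoG of COL8A1 was lowered by 0.32 log2 units (SE 0.16, adjusted p = 0.0437) while the gene had 0.05 (SE 0.12), in the authors' deposited tables. The DoG of LOXL3 was lowered by 0.29 (SE 0.14, adjusted p = 0.0393) while the gene had 0.09 (SE 0.21), in the authors' deposited table of each. DoG minus host was -0.37 (95% interval -0.77 to 0.02, adjusted p = 0.314) for COL8A1 and -0.39 (-0.88 to 0.10, adjusted p = 0.433) for LOXL3, so neither region was shown to move apart from its gene. Both calls were lost at an adjusted p under 0.01 and in the Wald test.

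LAMB1 showed the reverse arrangement. The gene fell by 0.78 log2 units (SE 0.17) and its DoG had 0.04 (SE 0.13, adjusted p = 0.835), in the authors' deposited tables. DoG minus host was 0.82 (95% interval 0.41 to 1.23, adjusted p = 0.00337 over 1920 regions with a host, by a normal test that takes both values as independent), and 8.39% of all such differences passed. In GENCODE 29 the end of LAMB1 (chromosome 7, 107923799, minus strand) lies inside DLD, a plus-strand gene that runs from 107890970 to 107931730 and encodes a mitochondrial dehydrogenase subunit. DLD had 0.10 (SE 0.12), close to the LAMB1 DoG, whereas the DoG named for DLD had -0.64 (SE 0.16, adjusted p = 4.83e-05), close to the LAMB1 gene, in the authors' deposited tables. Each DoG of this convergent pair thus stood nearer to the gene on the opposite strand than to its own host. With the strand setting not given, readthrough of one gene and reads of the other cannot be told apart. At LOXL3, whose end lies inside the plus-strand gene HTRA2, the DoG (-0.29) was also nearer to HTRA2 (-0.18, SE 0.13) than to LOXL3 (0.09) in the authors' deposited tables. The difference of that DoG from LOXL3 did not pass the threshold, however. The end of LAMA5 lies inside the plus-strand gene ADRM1. There the merged DoG (-0.026, SE 0.15), LAMA5 (-0.028, SE 0.11) and ADRM1 (0.066, SE 0.14) lay within 1 SE of each other, per the authors' deposited tables. Which of the genes this DoG stood nearer to therefore cannot be read. The nearest gene of the table past the end of COL8A1 is CMSS1, on the same strand at 18608 bases, with -0.08 (SE 0.17) in the authors' deposited table.

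A further pair of regions has a merged name. The region of LAMB3 and MIR4260 had a log2 fold change of -0.24 (SE 0.28) beside -0.43 for the LAMB3 gene, and that of LAMA5 and MIR4758 had -0.03 (SE 0.15) beside -0.03 for the LAMA5 gene, in the authors' deposited tables. The difference from the host was 0.19 (95% interval -0.42 to 0.80) for LAMB3 and 0.0016 (-0.37 to 0.38) for LAMA5, with adjusted p of 0.825 and 0.998.

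**Figure D4:**
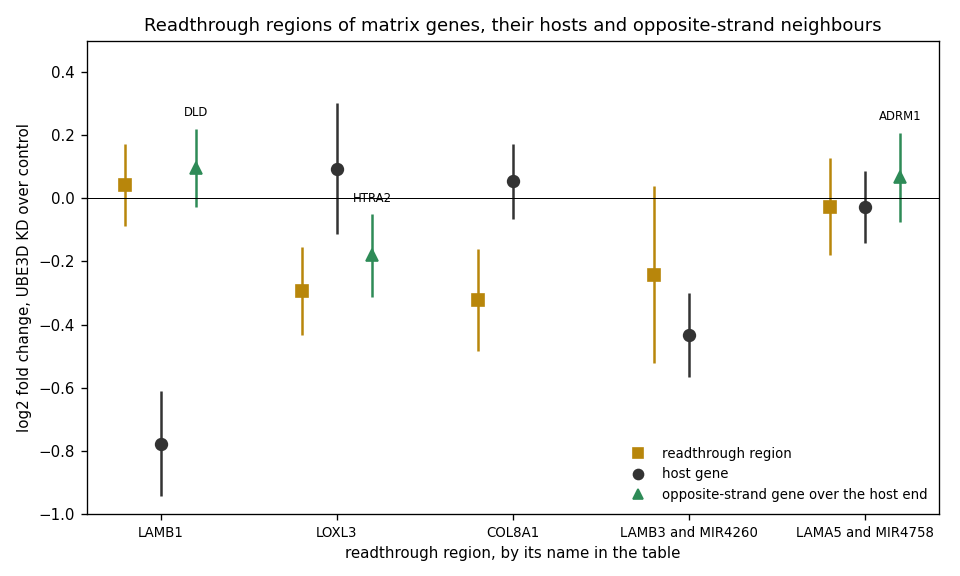
Log2 fold change, UBE3D KD over control (y axis), of 5 readthrough regions (squares), their host genes (circles) and, where one lies over the end of the host, the opposite-strand gene (triangles), with bars of 1 SE. The region of LAMB1 at 0.04 lies beside DLD at 0.10 and away from the LAMB1 gene at -0.78.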

How the data were processed

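Per the labels' protocols, total RNA of MDA-MB-231 cells was freed of ribosomal RNA and sequenced from both ends (75 bp) with strand kept. DESeq2, STAR 2.5.2b, cutadapt 1.8.1 and build hg38 are listed, per the submitters' processing notes. Not given in the sources used here: annotation, counter, strand setting and DoG calling.

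The deposited tables hold, per the file headers, a mean normalized count over libraries (treated as a signal), the log2 fold change with its SE, and raw and adjusted p-values. Adjusting the deposited p-values by Benjamini-Hochberg over each table returned the deposited adjusted ones. In all 20112 gene rows compared, change over SE was smaller than the normal quantile matching p (median ratio 0.64), so the authors' log2 values are shrunken. With depth unknown, precision is known only through the SE. The 2 tables may be scaled differently, so levels are not compared across them. Doing so for changes assumes that both are centred alike.

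Members were found by symbol, and all 86 matched GENCODE 29 on GRCh38, which gave positions, merged exon length and the longest 3' untranslated region of basic coding transcripts. RefSeq windows (250 bases before to 50 after a start) were found for 66. The members and lists were chosen with earlier results of these data known. Named were UBE3D, every called member, the most abundant member of each role, partners in an assembly, members with a DoG, and up to 4 called genes of each other list by p-value. Other genes named were chosen after their values were seen. DoG minus host was set over the square root of both squared SE added. Intervals are the value plus and minus the normal quantile times the SE. The Wald and difference steps were tested on simulated data, each with 200 rows given a change of 1 log2 unit. Of those 200 rows, 73.0% were recovered among 20115 gene rows and 93.0% among 1920 DoG rows. Python 3.11.15, numpy 2.4.6, pandas 2.3.3, scipy 1.17.1 and matplotlib 3.10.9 were used. The values of 1 member are not reported here, though it is kept in the counts.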

Additional observations from a re-analysis of the deposited data

How the results depend on the processing

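The count of 22 called members was 17 at an adjusted p under 0.01, 26 at 0.1 and 16 at 1.5-fold or more. With only means of at least 100 kept and the adjusted p recomputed, 17 members were called, 16 of them among the 22. The count was 14 in the Wald test on deposited values and 13 (10 lowered) with changes shifted to a median of 0. Shares of all genes at these settings are not given here. The Wald test uses shrunken changes and can only weaken calls. UBE3D kept its sign without passing in both (-0.80 and -0.78, adjusted p = 0.295 and 0.330). The 2 called DoG regions became 0 at an adjusted p under 0.01, at 1.5-fold, and in both Wald tests (2 at an unadjusted p under 0.05 in the authors' DESeq2 fit). For the Wald test, the shifted test and the 1.5-fold rule the counts were 6, 4 and 5 of 12 for collagen modification, 3, 3 and 4 of 9 for other core matrix genes and 6, 5 and 3 of 10 for receptors. Other core matrix genes also fell short at a mean of at least 100 (5), and receptors at an adjusted p under 0.01 (6). Shifting each table turned the LAMA5 difference to -0.011 (adjusted p = 0.985). With the SE of the DoG alone, the LOXL3 difference of -0.39 passed (adjusted p = 0.0263). The LAMB1 difference passed under both alternatives. Of 35 named members 27 kept their side of the threshold in the Wald test and 26 in the shifted one, and no sign changed. No paired analysis was possible because the tables hold no values per library, and leaving out a replicate was not run for the same reason.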

Other observations

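Members that neighbour each other on a chromosome had these values. LAMB1 and LAMB4, 20293 bases apart on the same strand of chromosome 7, had log2 fold changes of -0.78 and -0.06, and LUM and DCN, 28653 bases apart on chromosome 12, had 1.42 and -0.07 in the authors' deposited table. COL19A1 and COL9A1, 5085 bases apart on chromosome 6, had -0.48 and -0.50 in the authors' deposited table, with neither past the threshold. The median merged exon length was 8333 bases for the 18 lowered members and 7712 bases for the 64 not called. The median 3' untranslated region was 808 bases for lowered members and 1144 bases for those not called.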
